A study of Mus musculus with 4 samples.

Results

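The Notch receptors Notch1 and Notch2, the Notch ligands Jag1, Dll1 and Dll4, the basic helix-loop-helix factors Hes1 and Hes6, and the secretory factors Atoh1, Gfi1 and Spdef were followed in sorted Lgr5+ intestinal stem cells. These 10 genes were taken by symbol from a table of 18436 genes, and each had 1 row. RNA came from Lgr5-GFP high cells of the C57BL/6 mouse intestine, sorted by flow cytometry for the GFP that the Lgr5 locus drives. The 2 Lgr5-WT mice carried Lgr5-GFP-CreERT2, which also makes a tamoxifen-inducible Cre recombinase in Lgr5+ cells. The 2 Lgr5-CREPTKO mice carried Lgr5-GFP with CREPT fl/fl. Tamoxifen went into all 4 mice intraperitoneally, 1 mg daily over 5 days, and cells were taken on day 7, so the control cells had Cre and tamoxifen as well. CREPT is the protein of Rprd1b, which binds RNA polymerase II. The study used mice of both sexes aged 6 to 8 weeks, and the sex and exact age of these 4 are not given in the sources used here. Each library is described by its labels only as a numbered sample, so the p-values measure the spread between these samples.

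In the Notch pathway a ligand on one cell binds a receptor on its neighbour, the receptor is cut by proteases, and its inner part enters the nucleus and acts with the DNA-binding protein Rbpj. In the intestinal crypt Notch signalling keeps stem and progenitor cells from taking a secretory fate, and Hes1, a target of the pathway, represses Atoh1. Atoh1 directs progenitors to secretory fates, Gfi1 and Spdef act after it, and early secretory cells carry the ligands Dll1 and Dll4.

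Hes1 and its relatives repress genes through sites of the class C type, CACGNG, whereas factors such as Atoh1 bind E-boxes, CANNTG. The 250 bases before the most upstream RefSeq start of 3 genes with lower values in Lgr5-CREPTKO cells are printed to show where letters of either kind lie in them. The build is GRCm38.p6, each run reads 5′ to 3′ on the strand of the gene, and capitals mark both motifs on either strand. The windows are chr6:64728875-64729124 on the plus strand for Atoh1, chr17:15376933-15377182 on the minus strand for Dll1 and chr1:91414039-91414288 on the minus strand for Hes6.
Atoh1: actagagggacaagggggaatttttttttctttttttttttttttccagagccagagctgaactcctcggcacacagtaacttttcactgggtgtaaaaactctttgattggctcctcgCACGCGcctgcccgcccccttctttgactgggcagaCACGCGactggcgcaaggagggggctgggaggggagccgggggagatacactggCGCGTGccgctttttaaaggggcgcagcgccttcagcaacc
Dll1: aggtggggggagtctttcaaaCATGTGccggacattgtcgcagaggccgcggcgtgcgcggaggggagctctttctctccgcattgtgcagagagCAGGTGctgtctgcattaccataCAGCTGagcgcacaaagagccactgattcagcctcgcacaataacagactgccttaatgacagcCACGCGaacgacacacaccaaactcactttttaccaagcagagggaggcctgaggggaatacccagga
Hes6: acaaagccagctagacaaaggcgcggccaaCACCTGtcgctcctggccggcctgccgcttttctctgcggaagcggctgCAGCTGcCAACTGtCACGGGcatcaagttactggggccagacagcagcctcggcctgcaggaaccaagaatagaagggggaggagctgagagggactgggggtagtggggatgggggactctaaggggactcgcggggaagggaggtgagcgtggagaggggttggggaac
Atoh1 had 3 CACGNG matches, at 131, 95 and 41 bases before its start, and 0 E-boxes. Dll1 and Hes6 each had 1 CACGNG match and 3 E-boxes. RefSeq promoters were matched for 9 of the 10 genes, with 12 starts, and Hes1 had no entry. Dll1, Hes6 and Gfi1 had 2 starts each. A CACGNG match was held by 7 of the 12 member promoters and by 23.5% of all 32851 promoters, an E-box by 7 of 12 and 66.2%, the N-box CACNAG by 4 of 12 and 36.7%, and the Rbpj-type GTGGGAA by 0 of 12 and 5.4%. Counted by gene, 6 of 9 held a CACGNG match, 4 of 9 an E-box, 4 of 9 an N-box and 0 of 9 GTGGGAA. All motifs were searched on both strands, and CACGTG would count as both a CACGNG match and an E-box. A CACGNG match also lay before Dll4, whose values were lower in Lgr5-CREPTKO cells, and before Notch2 and Jag1, whose values were higher. None lay before Gfi1 and Spdef, whose values were lower, or before Notch1, whose values were higher. These matches describe letters in the windows and no binding was measured.

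The deleted gene was examined first. Rprd1b was at 17.7 and 18.1 FPKM in the Lgr5-WT mice and at 6.65 and 7.36 FPKM in the Lgr5-CREPTKO mice. FPKM counts fragments relative to the length of the transcript and the depth of the library. The groups were apart at a log2 fold change of -1.29 (limma adjusted p = 0.0280), and the deleted gene was lower where the labels place the deletion. Its mean in Lgr5-CREPTKO cells was 39.2% of that in Lgr5-WT cells, and the source of the remaining RNA was not tested. Fold changes are Lgr5-CREPTKO minus Lgr5-WT on log2(FPKM + 0.5), and adjusted p-values come from limma's moderated test over the 12621 genes whose mean reached 0.5 FPKM. From steps of 1 read in short genes the libraries held an estimated 17800000 to 19000000 fragments. Values of the 2 mice correlated across genes with r of 0.983 in Lgr5-WT and 0.977 in Lgr5-CREPTKO cells, and genes are not independent replicates. The stem cell list, led by Olfm4 and Cdca7, summed to 5657 and 5497 FPKM against 6020 and 5863 FPKM, and 0 of its 6 genes passed the test. Olfm4 made up most of these sums. All 6 genes had higher values in Lgr5-CREPTKO cells without overlap, where 25.6% of all tested genes did. Their log2 fold changes ran from 0.07 for Olfm4 to 0.43, with 0.40 for Lgr5 (limma adjusted p = 0.176). Endothelial and mesenchymal genes reached at most 0.20 and 0.28 FPKM. Immune genes, led by Itgam and Cd3e, summed to between 1.88 and 6.75 FPKM.

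Both receptors had higher values in CREPT-deleted cells, 2 of the 3 ligands and all 3 secretory factors had lower ones, and Hes1 and Hes6 lay on opposite sides. All 10 genes passed the filter on low values, and in all 10 the groups did not overlap, 6 of them lower and 4 higher in Lgr5-CREPTKO cells. Groups did not overlap for 31.0% of all tested genes on the lower side and 25.6% on the higher side. None of the 10 reached an adjusted p below 0.05, where 3.08% of all tested genes did, and 5 of 10 had an unadjusted limma p below 0.05, where 24.5% of all tested genes did. These 5 were Notch1, Notch2, Dll4, Hes6 and Spdef. The median log2 fold change of the members was -0.35, beside -0.01 over all genes tested. Dll1, Atoh1 and Spdef were among genes the study picked from these samples, so their direction is not independent evidence. With 2 mice against 2, an exact permutation test of a single gene cannot go below p = 0.333.

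**Figure D1:**
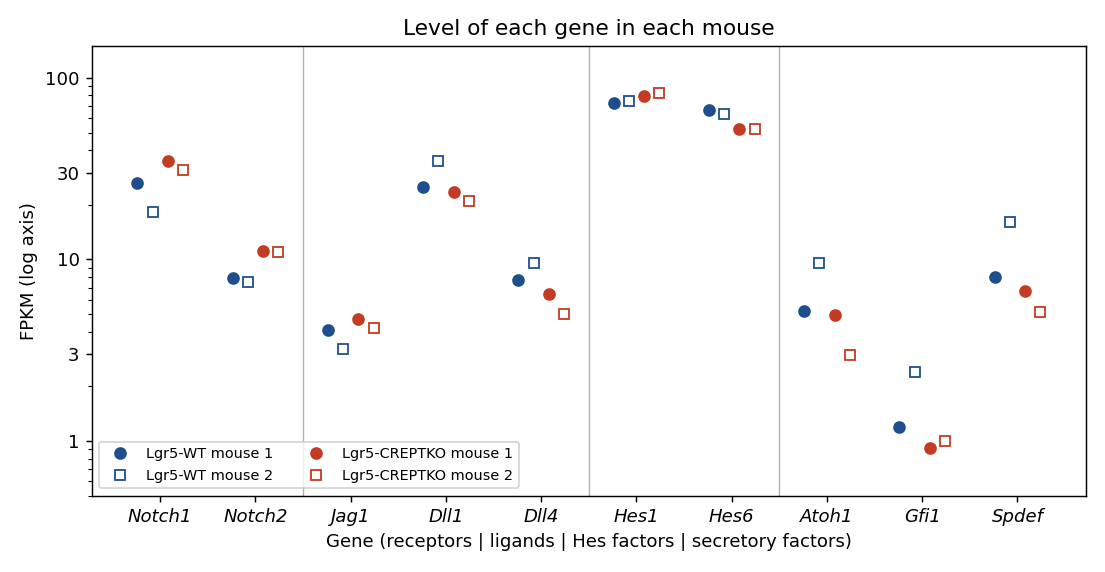
FPKM on a log axis of the 10 genes in each of the 4 mice, ordered as receptors, ligands, Hes factors and secretory factors, with blue for Lgr5-WT and red for Lgr5-CREPTKO, filled circles for mouse 1 and open squares for mouse 2. Hes1 lies at 72.7 to 82.7 FPKM and Gfi1 at 0.92 to 2.41 FPKM, and within each gene no red symbol lies among the blue ones.

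Notch1, a receptor of crypt stem and progenitor cells on chromosome 2 from 26457902 to 26503822, was at 26.2 and 18.2 FPKM in Lgr5-WT and at 34.8 and 31.2 FPKM in Lgr5-CREPTKO cells. Both deleted samples were above both controls, and the controls were further from each other than the deleted samples. The log2 fold change was 0.58 (SE 0.185, 95% interval 0.11 to 1.06, limma adjusted p = 0.146), and it was 0.32 without Lgr5-WT mouse 2 and 0.84 without Lgr5-WT mouse 1. Notch2, the second receptor of the crypt, on chromosome 3 from 98013538 to 98150367, was at 7.95 and 7.49 FPKM against 11.2 and 10.96 FPKM. Each genotype was tight, and the groups were well apart. Its log2 fold change was 0.49 (SE 0.0921, 95% interval 0.26 to 0.73, limma adjusted p = 0.0631), the lowest adjusted p of the 10 genes. Summed over both receptors the values were 34.2, 25.7, 45.97 and 42.1 FPKM in Lgr5-WT mouse 1, Lgr5-WT mouse 2, Lgr5-CREPTKO mouse 1 and Lgr5-CREPTKO mouse 2.

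Transcript length moved with the fold change over all genes. The 571 tested genes with a transcript over 8000 bases had a median log2 fold change of 0.21 and 82.8% of them had higher values in Lgr5-CREPTKO cells, while the 680 genes of 500 to 1000 bases had a median of -0.24 with 19.1% higher. Notch1 and Notch2 are among the long ones, with longest coding transcripts of 9488 and 10500 bases. When a smooth trend in transcript length was removed from each library, an alternative chosen after seeing the data, the log2 fold changes were 0.38 for Notch1 and 0.27 for Notch2 (limma adjusted p = 0.256 and 0.187). The direction stayed and the size of the Notch2 difference moved by over 1.5 times, as that of Notch1 did.

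Among the ligands the Delta type and the Jagged type lay on opposite sides. Dll1, on chromosome 17 from 15367354 to 15376932, was at 24.96 and 34.7 FPKM in Lgr5-WT and at 23.7 and 21.0 FPKM in Lgr5-CREPTKO cells. The lower control lay close to the higher deleted sample, and Lgr5-WT mouse 2 stood above the other mice. Its log2 fold change was -0.39 (SE 0.172, 95% interval -0.83 to 0.05, limma adjusted p = 0.243), and it was -0.16 without Lgr5-WT mouse 2 and -0.63 without Lgr5-WT mouse 1. Dll4, on chromosome 2 from 119325784 to 119335666, was at 7.75 and 9.54 FPKM against 6.46 and 5.02 FPKM. Both deleted samples were below both controls by more than for Dll1, in proportion to their level. Its log2 fold change was -0.55 (SE 0.168, 95% interval -0.99 to -0.12, limma adjusted p = 0.137).

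The Dll4 gene shares 414 bases with the long noncoding RNA gene Gm14207, which was at 2.43 and 2.94 FPKM in Lgr5-WT and 1.29 and 0.77 FPKM in Lgr5-CREPTKO cells. Counting by strand is not stated, so reads from the shared bases cannot be told apart, and the same holds for Notch1 with 0610009E02Rik and Notch2 with Gm40103, which overlap them. Jag1, a ligand of the other type, on chromosome 2 from 137081451 to 137116520, was at 4.10 and 3.21 FPKM against 4.67 and 4.20 FPKM. The groups lay next to each other without overlap, with a log2 fold change of 0.25 (SE 0.158, 95% interval -0.15 to 0.66, limma adjusted p = 0.385) that was 0.16 after the length trend was removed and 0.10 and 0.41 without Lgr5-WT mouse 2 and mouse 1.

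FPKM is per length, so levels of different genes can be set against each other within a mouse. Between genotypes the length trend given above can also enter a ratio of genes of unlike length. Dll1 was the most abundant of these 3 ligands in every mouse, at 3.22 to 4.18 times Dll4. Dll1 over Notch1 was 0.952 and 1.91 in the controls and 0.680 and 0.674 in the deleted samples. The ratio was lower in both deleted samples, which follows from Dll1 being lower and Notch1 higher there without overlap. The controls differed from each other by more than Lgr5-WT mouse 1 did from the deleted samples. Dll1 and Notch1 have longest coding transcripts of 3581 and 9488 bases. After the length trend was removed their log2 fold changes were -0.40 and 0.38, and the part of length in this ratio was not tested. The 3 ligands together summed to 36.8 and 47.4 FPKM in Lgr5-WT and to 34.8 and 30.2 FPKM in Lgr5-CREPTKO cells.

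Hes1, the repressor downstream of Notch, on chromosome 16 from 30065357 to 30067796, was the most abundant of the 10 genes in every mouse, at 72.7 and 74.6 FPKM in Lgr5-WT and 79.0 and 82.7 FPKM in Lgr5-CREPTKO cells. The groups did not overlap and were close, with Lgr5-CREPTKO at 109.9% of Lgr5-WT. On the log2 scale the fold change was 0.13 (SE 0.0677, 95% interval -0.04 to 0.31, limma adjusted p = 0.296), and it was 0.28 after the length trend was removed (limma adjusted p = 0.101), its longest coding transcript being 1468 bases. Hes6, a factor of the same family known for opposing Hes1, on chromosome 1 from 91411483 to 91414038, was at 66.3 and 63.2 FPKM against 52.5 and 52.5 FPKM. Its deleted samples were nearly equal and below both controls. For Hes6 the log2 fold change was -0.30 (SE 0.0682, 95% interval -0.48 to -0.12, limma adjusted p = 0.0846), and with 1335 bases it was -0.14 after the length trend was removed (limma adjusted p = 0.351). Hes1 over Hes6, 2 genes of similar length, was 1.10 and 1.18 in Lgr5-WT and 1.51 and 1.58 in Lgr5-CREPTKO cells. That these ratios did not overlap follows from the opposite sides of the 2 genes and is no separate result.

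**Figure D2:**
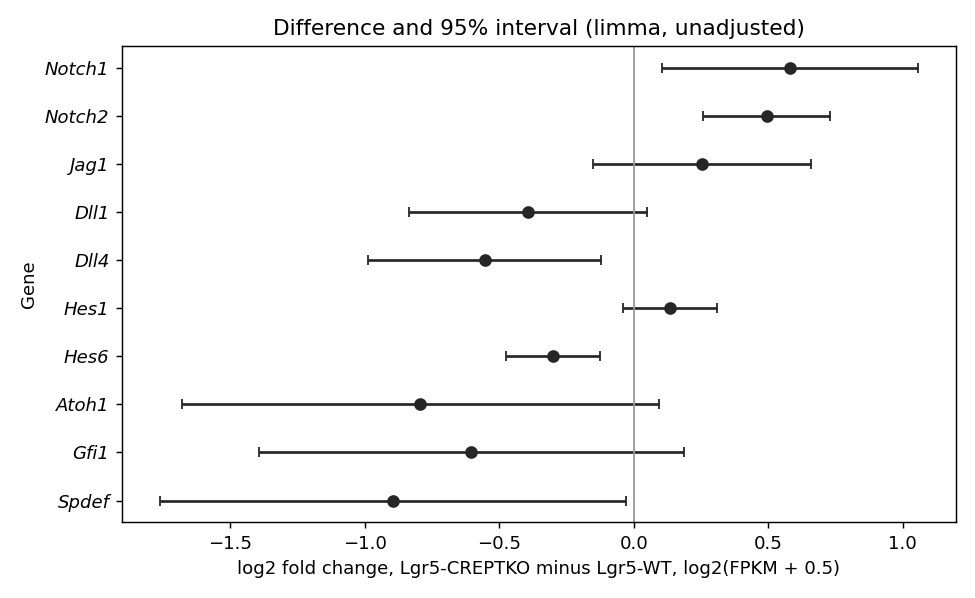
Log2 fold change of each gene, Lgr5-CREPTKO minus Lgr5-WT on log2(FPKM + 0.5), with unadjusted 95% intervals from limma as bars and a line at no difference. The intervals of Notch1, Notch2, Dll4, Hes6 and Spdef lie on one side of the line, and those of the secretory factors are the widest.

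The secretory factors had the lowest ratios of the 10 genes, with Lgr5-CREPTKO at 49.3% of Lgr5-WT for Spdef, 53.3% for Gfi1 and 53.9% for Atoh1. Atoh1, the factor that sets secretory fate, on chromosome 6 from 64729125 to 64731245, was at 5.18 and 9.52 FPKM in Lgr5-WT and 4.93 and 2.99 FPKM in Lgr5-CREPTKO cells. Lgr5-WT mouse 1 and Lgr5-CREPTKO mouse 1 were close, so the group difference rested on the other mouse of each genotype. The log2 fold change was -0.79 (SE 0.345, 95% interval -1.68 to 0.09, limma adjusted p = 0.241). Gfi1, a repressor that acts in goblet and Paneth cell precursors, on chromosome 5 from 107716655 to 107725805, was at 1.19 and 2.41 FPKM against 0.92 and 1 FPKM. It was the least abundant of the 10 in every mouse and rested on about 49 to 127 fragments a library. Its log2 fold change was -0.60 (SE 0.307, 95% interval -1.39 to 0.19, limma adjusted p = 0.3004).

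Spdef, an Ets factor of goblet and Paneth cell maturation, on chromosome 17 from 27714446 to 27731003, was at 8.01 and 16.0 FPKM in Lgr5-WT and 6.73 and 5.12 FPKM in Lgr5-CREPTKO cells. Both deleted samples lay below both controls, and the control values were far apart. The log2 fold change was -0.90 (SE 0.337, 95% interval -1.76 to -0.03, limma adjusted p = 0.194). Lgr5-WT mouse 2 was above Lgr5-WT mouse 1 by a factor of 1.84 for Atoh1, 2.03 for Gfi1 and 2.00 for Spdef. Without Lgr5-WT mouse 2 the log2 fold changes were -0.38 for Atoh1, -0.21 for Gfi1 and -0.42 for Spdef, and without Lgr5-WT mouse 1 they were -1.20, -0.996 and -1.37. Without Lgr5-CREPTKO mouse 2 that of Atoh1 was -0.47. Spdef over Atoh1 was 1.55 and 1.68 in the controls and 1.37 and 1.71 in the deleted samples, and these ratios overlapped between genotypes. Hes1 over Atoh1 was 14.0 and 7.83 in Lgr5-WT and 16.0 and 27.7 in Lgr5-CREPTKO cells.

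Summed goblet, enteroendocrine and tuft markers were lower in both Lgr5-CREPTKO mice than in both controls, while the Paneth and enterocyte sums overlapped. The 8 goblet genes, led by Tff3 and Fcgbp, summed to 1471 and 2449 FPKM in Lgr5-WT and to 805 and 938 FPKM in Lgr5-CREPTKO cells, and 2 of 8, Spink4 and Ern2, had adjusted p below 0.05 in limma. The enteroendocrine list, led by Chgb and Gip, summed to 216 and 309 FPKM against 63.3 and 73.4 FPKM. All 9 tested genes had lower values, beside 6605 of all 12621 tested genes, and 4 of the 9 were called lower (Chgb, Cck, Tac1 and Ghrl). Tuft genes, led by Avil and Trpm5, summed to 19.1 and 41.3 FPKM against 16.4 and 6.59 FPKM, and 0 of 6 tested passed. The share of genes called lower over the whole table was 2.67%. As for Atoh1, Gfi1, Spdef, Dll1 and Dll4, the sums of goblet, enteroendocrine and tuft genes were highest in Lgr5-WT mouse 2. These sums were at 1.67, 1.43 and 2.17 times Lgr5-WT mouse 1. The enteroendocrine genes were not uniform in this. Gip was at 39.0 and 110.6 FPKM in Lgr5-WT mouse 1 and mouse 2, while Chgb was at 64.7 and 59.3 FPKM. Paneth genes, led by Defa24 and Defa17, summed to 1404 and 1020 FPKM in Lgr5-WT and 836 and 2457 FPKM in Lgr5-CREPTKO cells, and enterocyte genes, led by Fabp2 and Anpep, to 360 and 480 against 300 and 561 FPKM. In each of these 0 of 8 genes passed. With the length trend removed 0 goblet and 2 enteroendocrine genes were called lower. In a sorted bulk sample fewer secretory cells and less RNA per cell cannot be told apart, and the part of these markers in the values of the 10 genes was not tested.

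**Figure D3:**
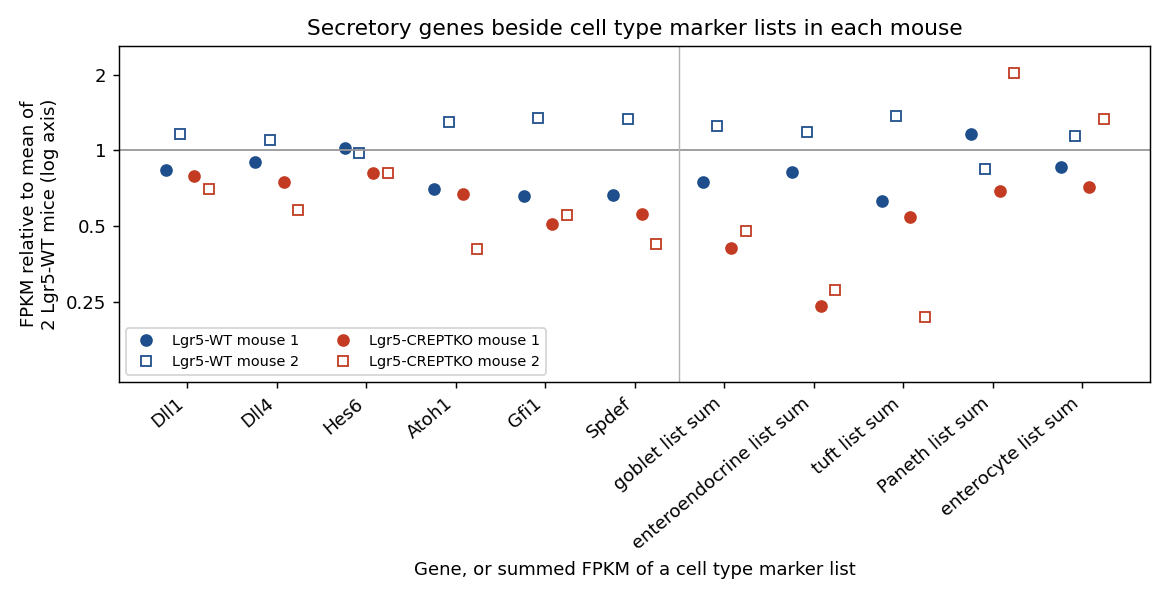
Atoh1, Gfi1, Spdef, Dll1, Dll4 and Hes6 and the summed FPKM of 5 marker lists in each mouse, divided by the mean of the 2 Lgr5-WT mice, on a log axis, with blue for Lgr5-WT and red for Lgr5-CREPTKO, filled circles for mouse 1 and open squares for mouse 2. Lgr5-WT mouse 2 is the highest for Atoh1, Gfi1, Spdef, Dll1, Dll4 and the goblet, enteroendocrine and tuft sums. Lgr5-CREPTKO mouse 2 is the highest for the Paneth and enterocyte sums.

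The rest of the pathway was read from lists of its parts. Of the other receptors and ligands 2 of 7 passed the filter, and Jag2, a Jagged-type ligand on chromosome 12 from 112907803 to 112929812, was called higher. Jag2 was at 1.07 and 1.09 FPKM in Lgr5-WT and 3.88 and 2.93 FPKM in Lgr5-CREPTKO cells. The controls were nearly equal and both deleted samples were well above them, on about 103 to 374 fragments a library. The log2 fold change was 1.29 (SE 0.189, 95% interval 0.81 to 1.78, limma adjusted p = 0.0438), where 0.412% of all tested genes were called higher. Its adjusted p was 0.0416 to 0.305 over 14 alternatives and passed the threshold in 5 of them, and after the length trend was removed the log2 fold change was 1.23 (limma adjusted p = 0.0577). Jag2 over Jag1 was 0.261 and 0.340 in Lgr5-WT and 0.831 and 0.698 in Lgr5-CREPTKO cells, so Jag1 was the more abundant in every mouse. Notch4 had a log2 fold change of 0.27 (limma adjusted p = 0.542).

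None of the genes that handle the ligand, modify the receptor or cut it passed the test, where 3.08% of all tested genes did. Over all 12621 tested genes 6016 had higher and 6605 lower values. Of 8 tested genes of ligand endocytosis and receptor sorting, 5 had higher and 3 lower values. Mib1, the ubiquitin ligase that lets ligands signal, was at 11.1 and 11.1 FPKM against 16.4 and 14.9 FPKM (log2 fold change 0.47, limma adjusted p = 0.0656), and its relative Mib2 had 0.26 (limma adjusted p = 0.185). Mib1 has a transcript of 10231 bases and a log2 fold change of 0.25 after the length trend was removed. Of 5 glycosylation genes 4 had lower values, among them Pofut1, which adds the O-fucose that Notch needs, at 13.4 and 14.2 against 9.45 and 10.5 FPKM (log2 fold change -0.45, limma adjusted p = 0.0804, and -0.54 with the length trend removed). Mfng, also counted among these 4, was at 0.66 and 0.79 against 0.44 and 0.34 FPKM. It passed the filter only through the Lgr5-WT mice, so its direction carries no weight and it is given without a test.

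Of 9 tested cleavage genes 6 had higher and 3 lower values. Psenen, a subunit of the gamma-secretase that frees the inner part of Notch, was at 89.8 and 103.4 FPKM in Lgr5-WT and 67.5 and 61.7 FPKM in Lgr5-CREPTKO cells (log2 fold change -0.57, limma adjusted p = 0.0570). Its transcript has 708 bases, and with the length trend removed the log2 fold change was -0.31. Aph1a, another subunit, had -0.42 (limma adjusted p = 0.0761). In the nuclear complex and its regulators 11 of 12 tested genes had higher values, beside 6016 of all 12621 tested genes. Their median was 0.17, and the length correction left 9 of 12 higher with a median of 0.08. Spen, a corepressor, had a log2 fold change of 0.38 (limma adjusted p = 0.121) and a transcript of 12299 bases.

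Other Hes and Hey genes were scarce, with 1 of 8 passing the filter. Hes5, a further Notch target, was at 0.26 and 0.26 FPKM against 0.77 and 1.26 FPKM. It passed the filter only through the Lgr5-CREPTKO mice, so these values are given without a test. Of 2 other genes that Hes1 is known to hold down, the cyclin-dependent kinase inhibitors Cdkn1c and Cdkn1b, the log2 fold changes were -1.07 and -0.10 (limma adjusted p = 0.0638 and 0.670).

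The other secretory factors held all 3 lower calls of the pathway and secretory lists, 3 of 15 tested genes beside 2.67% over the whole table. Their values were lower in 14 of 15, beside 6605 of all 12621 tested genes. The median log2 fold change of the 15 was -0.95, with a range of -1.67 to 0.20. Several of them, Neurod1, Neurog3 and Nkx2-2, were also picked by the study on these samples, so their count is not independent evidence. Neurod1, a factor of enteroendocrine differentiation, was at 5 and 6.39 FPKM in Lgr5-WT and 1.78 and 1.42 FPKM in Lgr5-CREPTKO cells (log2 fold change -1.56, limma adjusted p = 0.0336). Pax4, of the same lineage, was at 2.81 and 3.21 against 0.75 and 0.47 FPKM (-1.67, limma adjusted p = 0.0376), and rested on about 11 to 19 fragments in the deleted samples. In both genes the deleted samples lay far below the controls. Xbp1, a factor of the unfolded protein response that secretory cells need, was at 63.2 and 70.3 against 31.6 and 37.3 FPKM (-0.95, limma adjusted p = 0.0336). With the length trend removed 2 of the 15 were called, and Pax4 had an adjusted p of 0.0560 in limma. None of these 3 genes was called with no filter on low values or without the intensity trend. With the replicate number as a block only Xbp1 was called. The enteroendocrine sums were lower in the same mice, at 26.0% of Lgr5-WT, and their part was not tested.

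**Figure D4:**
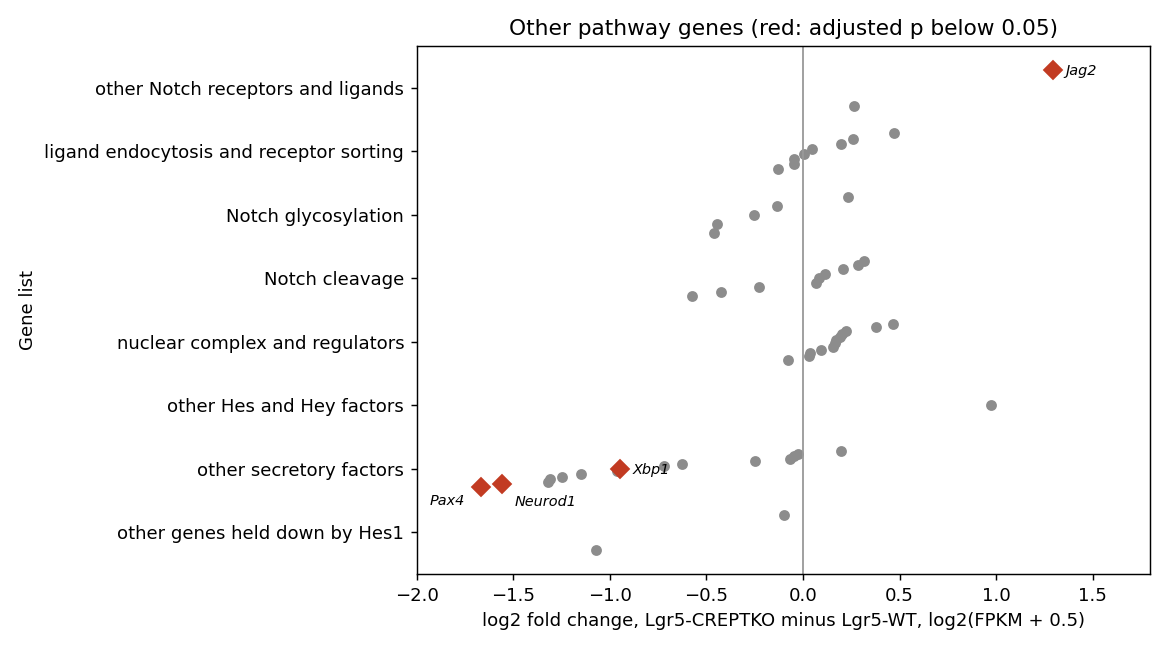
Log2 fold change of every tested gene in 8 lists of Notch pathway and secretory genes, Lgr5-CREPTKO minus Lgr5-WT on log2(FPKM + 0.5), with red diamonds for adjusted p below 0.05 in limma and grey points for the rest. Jag2 stands at 1.29 among the ligands, and Neurod1, Pax4 and Xbp1 stand at -1.56, -1.67 and -0.95 among the secretory factors. Hes5 and Mfng are drawn too, though each passed the filter only through the genotype where it is higher.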

How the data were processed

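RNA of sorted Lgr5-GFP high cells was sequenced on a BGISEQ-500 in 4 libraries, 2 for each genotype. The authors deposited 1 table of FPKM values. Per the study's methods, reads were mapped to GRCm38.p6 reference transcripts with Bowtie2 and quantified with RSEM, though that section names crypts and intestines. The submitters' processing notes also name HISAT and mm10, and versions are not given in the sources used here. The authors used DESeq2 on counts, which an FPKM table does not hold.

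FPKM is relative to each library's total and transcript lengths, and the 4 columns sum to 468830 to 499327. Depth was estimated from steps of 1 read in short genes, within 0.03 of whole reads for 67.2% to 78.4% of 113 to 145 values a library. Columns were assigned to mice by their names, which match the sample titles. Values were taken as log2(FPKM + 0.5) for the 12621 genes whose mean reached 0.5 FPKM and tested with limma 3.58.1 in R 4.3.3, with an intensity trend and Benjamini-Hochberg adjustment. A call is an adjusted p below 0.05. Figures and sequences used Python 3.11.15. Transcript lengths are the longest coding transcript in the GENCODE annotation of GRCm38, known for 96.5% of tested genes.

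The members and lists were chosen with earlier results of these data known. Named genes were the 10 members, Rprd1b, in each pathway list the called genes or, under 2 calls, the 2 with the largest change, and in each marker list the 2 with the highest mean; 1 gene that this rule names is not reported here. Lgr5, Spink4, Ern2, Cck, Tac1 and Ghrl, as well as Neurog3, Nkx2-2 and the overlapping Gm14207, were named after their values were seen. The pseudocount, filter, scaling, intensity trend, replicate block and each mouse left out were varied, and a length correction was added after seeing the data.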

Additional observations from a re-analysis of the deposited data

How the results depend on the processing

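All 10 genes kept their direction under all 14 alternatives, and 0 of 10 were called under any of them. For most alternatives the direction could not have changed. With groups that do not overlap, neither leaving out 1 mouse nor another pseudocount can reverse it. The filter, the intensity trend and the replicate block leave the fold change as it is. Only scaling and the length correction could have reversed a direction. Counts over all genes were less stable. The reported fit gave 337 lower and 52 higher genes, and 3 lower and 1 higher in the pathway and secretory lists. These became 0 lower and 0 higher genes and 0 and 0 in the lists with no filter on low values, where 2250 lower and 1320 higher genes had an unadjusted limma p below 0.05. Without the intensity trend they were 4 lower and 0 higher, and 0 and 0 in the lists. Leaving out 1 mouse gave 0 to 0 genes and 0 to 0 in the lists in each direction, with a lone sample assumed to vary like the other group and 1177 to 1587 lower and 634 to 916 higher genes at an unadjusted limma p below 0.05. With transcript length corrected, an alternative chosen after seeing the data, there were 111 lower and 12 higher genes, and 0 higher in the lists. The cause of these shifts was not tested. With the replicate number as a block, 168 genes were lower and 15 higher, with 1 lower and 0 higher in the lists, and with block and length correction together 4 and 0, with 0 and 0 in the lists. The numbers name different mice, and the deviations of same-numbered mice correlated at -0.0266 over 12621 genes, so the samples share only a number and no pairing was assumed. Of the members, 5 had an unadjusted limma p below 0.05 in the reported fit and 2 to 8 over the alternatives. The median over all genes moved from -0.01 to 0.04 under quantile scaling. Gfi1 rested on about 49 to 127 fragments a library and Pax4 on about 11 to 80.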
